A study of Mus musculus with 2 samples.

Results

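The cells described here were mouse retinal rods whose mitochondrial transcripts made up more than 18% of their RNA counts, the limit above which the study's methods state that cells were left out as low in quality. A cell barcode was taken as such a rod if it stood in the list of barcodes with a sample tag, if more than 18% of its unique molecular identifiers (UMIs, each standing for 1 captured RNA molecule) came from mitochondrial genes, if the rod genes Sag, Pdc, Gngt1 and Gnat1 together held at least 1% of its UMIs, and if the cone genes Arr3, Opn1sw, Opn1mw, Gnat2 and Pde6h held less than 0.5%. By this rule, 204 of the 834 barcodes of the expression library were rods above the limit, out of 581 rods among the 645 barcodes with a tag. The other 377 rods, at or below 18%, served as the comparison. The members were thus chosen by measured values, the mitochondrial share and the level of the rod and cone genes, and everything that depends on these is given below as a description.

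Rods hold the light-sensing machinery of dim-light vision in the stacked membranes of the outer segment, which joins the mitochondria-rich inner segment through a thin connecting cilium. RNA leaks out of a cell whose plasma membrane has opened, while transcripts inside mitochondria are held behind further membranes, so that the mitochondrial share is widely used as a measure of cell quality. Photoreceptors also hold many mitochondria, and dissociating a retina can sever their outer segments, cilia and synaptic terminals from the cell body.

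Wild-type mouse retinas were electroporated in newborn pups with the plasmid pCIG2, in which the inserted gene and the reporter EGFP are read from 1 transcript, and the plasmid held no insert, lamin A or the lamin B receptor Lbr. The retinas were taken from adults and dissociated with Accutase, and EGFP-positive cells that excluded the dye Dapi were sorted, so every cell compared carried the reporter and had passed a viability gate. Cells of each condition were labelled with a lipid-anchored oligonucleotide (MULTI-seq) and pooled for 1 run on the 10x Genomics Chromium platform. The deposited calls put 264 barcodes in tag 1, 316 in tag 2 and 41 in tag 3, those above 18% mitochondrial UMIs included. In that order, these equal what the study's methods state for rods of the empty plasmid, lamin A and Lbr after quality control. The counts therefore do not show that cells above 18% were left out. The labels and files themselves tie no tag to a condition, so the groups are called tag 1, tag 2 and tag 3 and compared only within a tag, and the sources used here do not give the number of animals or retinas behind a tag.

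The 3 tag oligonucleotides are shown because each comparison below was made among the cells that carry 1 of them. The tag itself, in capitals, sits at positions 22 to 29 counted from the 5′ end, between a primer site and a run of A that the gene expression beads capture. In tag 2 the bases ag stand between the tag and the unbroken run of A.
tag 1: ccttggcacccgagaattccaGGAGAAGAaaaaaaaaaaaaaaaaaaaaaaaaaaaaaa
tag 2: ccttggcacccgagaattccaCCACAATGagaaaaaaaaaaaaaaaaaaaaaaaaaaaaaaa
tag 3: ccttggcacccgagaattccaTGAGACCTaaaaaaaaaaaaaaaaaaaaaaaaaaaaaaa

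The share of rods above the limit differed widely between the tags. In tag 1, 40 of 247 rods were above it (16.2%, exact Clopper-Pearson 95% interval 11.8% to 21.4%). In tag 2, 144 of 280 rods were above it (51.4%, 45.4% to 57.4%), and in tag 3, 11 of 35 (31.4%, 16.9% to 49.3%). The remaining 9 rods above the limit were among 18 that the deposited calls name doublets, and they entered no comparison between the sides of the limit within a tag. The intervals cover counting error only, and with 1 pool of cells per tag there is no replicate error and no test of any difference below.

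The rods above the limit spread over a narrow range, from 18.01% to 29.8% mitochondrial UMIs with a median of 21.6%, and the nearest rod under the limit stood at 17.99%. The upper end was also the highest value of any barcode with a tag. Outside the list of tagged barcodes, 69 more barcodes met the rod rule above the limit, with a median of 1365 UMIs and of 34.6% mitochondrial UMIs. The detected genes of the 204 rods ran from 220 to 1017, so all of them met the other limits of the study, 200 to 2500 genes.

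The rods above the limit held fewer nuclear-coded UMIs and more mitochondrial UMIs than the other rods of the same tag, by the median rod. In tag 1 the medians were 1562 against 2598 nuclear-coded UMIs, in tag 2 1849 against 2248.5, and in tag 3 1302 against 2266.5. The mitochondrial medians were 476.5 against 319 in tag 1, 515.5 against 382.5 in tag 2 and 394 against 313.5 in tag 3. The ranges overlapped, since nuclear-coded UMIs ran from 920 to 4021 above the limit and from 479 to 81034 at or below it in tag 1, and from 624 to 5129 and from 555 to 4282 in tag 2. Both counts entered the rule through their ratio, so this describes which rods were selected.

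**Figure D1:**
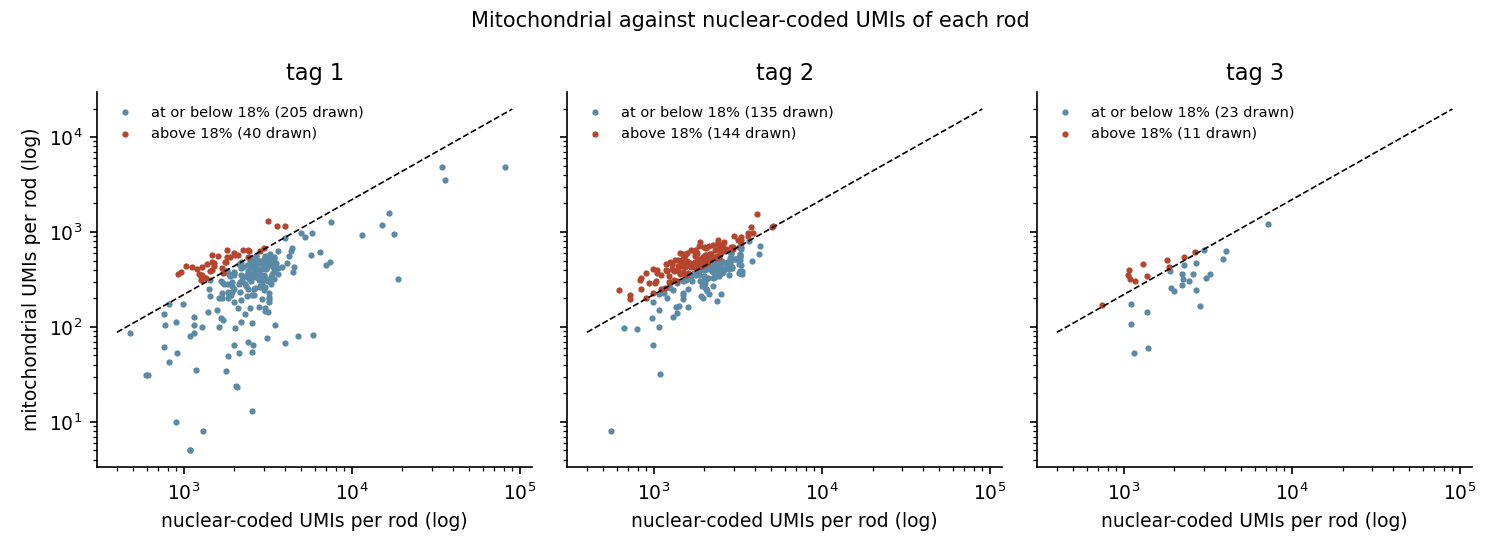
Each point is 1 rod, with its nuclear-coded UMIs on the x axis and its mitochondrial UMIs on the y axis, both on log scales, in 1 panel per tag, and the dashed line marks 18% mitochondrial UMIs. The 40, 144 and 11 rods above the limit lie over the line toward the left of each cloud, and the deepest rods of tag 1 lie below it; the 4 rods with no mitochondrial UMI cannot be drawn on a log axis.

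Rods above the limit also expressed fewer different genes, and in tags 1 and 2 this remained when depth was made equal. Detected genes per rod had medians of 393.5 above the limit against 614 at or below it in tag 1, 471.5 against 550 in tag 2, and 375 against 550.5 in tag 3. After each rod was thinned to 1100 nuclear-coded UMIs, the medians were 348 against 440 in tag 1 (quartiles 321 to 373 and 408 to 470), 390 against 417 in tag 2 (354 to 417 and 385 to 444) and 400 against 417.5 in tag 3. Thinning left out 3 and 17 rods in tag 1, 16 and 11 in tag 2, and 4 and 2 in tag 3, above and at or below the limit respectively.

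Tag 1 held 7 rods that stood apart from the rest, all at or below the limit. They had 2554 to 7614 genes, 16238 to 85822 UMIs and 1.69% to 12.4% mitochondrial UMIs, and they supplied 29.1% of the nuclear-coded UMIs of the tag 1 comparison rods. Results of tag 1 are therefore given with these 7 rods and, for the list sums and described genes that move most, also without them (200 to 2500 genes per rod, which leaves 200 comparison rods and changes nothing in tags 2 and 3).

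To ask which nuclear-coded genes these rods kept or lost, UMIs were summed over the rods on each side of the limit within a tag and divided by the sum of nuclear-coded UMIs. The log2 ratio compares that share above the limit with the share at or below it, with 0.5 UMIs added to both sums, so 0 means that a gene fell in step with the nuclear-coded RNA as a whole. A gene was compared if at least 20 UMIs were expected on each side. The sums held 71969 and 753991 nuclear-coded UMIs in tag 1, 279013 and 306020 in tag 2, and 16399 and 60402 in tag 3. Brackets give exact 95% intervals of the ratio, which are too narrow because UMIs came in clumps: in genes seen in 2 to 5 rods, 55.3% of nonzero values were 2 or more.

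The number of genes past 1.5-fold was about the same upward and downward in each tag. In tag 1, 102 of 543 genes (18.8%) were past 1.5-fold higher and 98 (18%) lower, together 36.8%, in tag 2 341 of 2071 (16.5%) and 353 (17.0%), together 33.5%, and in tag 3 25 of 136 (18.4%) and 23 (16.9%), together 35.3%. Without the 7 deep rods of tag 1, 64 of 556 genes (11.5%) were higher and 93 (16.7%) lower. The median gene differed by 1.34-fold in tag 1, 1.32-fold in tag 2 and 1.29-fold in tag 3, in either direction. The median log2 ratio of all compared genes was 0.16, -0.03 and 0.05 in tags 1, 2 and 3, and 0.02 in tag 1 without the deep rods. Dividing by all UMIs, mitochondrial ones included, shifted these medians to -0.07, -0.16 and -0.12 and the split to 46 higher and 133 lower in tag 1, 253 and 464 in tag 2, and 14 and 33 in tag 3.

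The gene-by-gene ratios of tags 1 and 2, which share no cells, did not line up. For the 535 genes that reached this minimum in tags 1 and 2 alike, Pearson's r was -0.02 and Spearman's rank correlation 0.01, and for the 85 genes that reached 100 expected UMIs r was -0.06. These are descriptions across genes, whose ratios share the total of their libraries. They include the 7 deep rods of tag 1 and were not computed without them. Of the 535, 3 were past 1.5-fold higher in both tags, 7 lower in both, and 8 past it in opposite directions. The same sign in both tags was seen in 268.

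Transcripts for photoreceptor membrane and secreted proteins made up more of the nuclear-coded RNA in rods above the limit in each tag. The 37 genes of that list held 5.36% of nuclear-coded UMIs above the limit and 4.28% at or below it in tag 1 (log2 0.33, 0.28 to 0.38, and 0.21 without the deep rods), 5.98% and 5.33% in tag 2 (0.17, 0.13 to 0.20), and 4.22% and 3.72% in tag 3 (0.18, 0.06 to 0.31). By single rods, the share had a median of 5.40% above the limit (lowest 1.75%, highest 11.3%) against 4.48% in tag 1, 5.85% (1.28% to 13.7%) against 5.37% in tag 2, and 4.99% (1.70% to 6.16%) against 3.80% in tag 3. The ranges of both sides overlapped over most of their length in each tag.

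**Figure D2:**
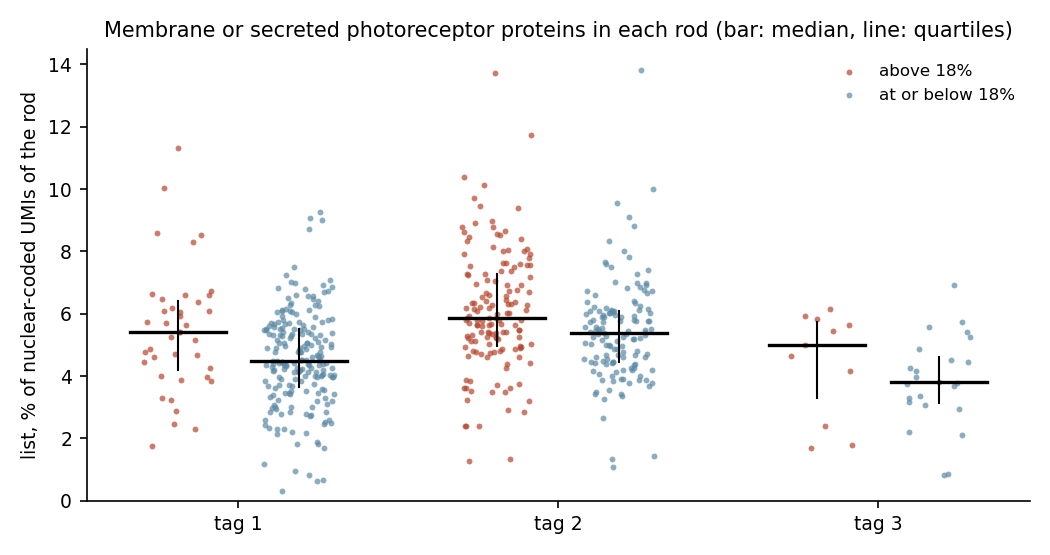
Each point is 1 rod and shows the summed share of the 37 genes for membrane and secreted photoreceptor proteins as a percent of its nuclear-coded UMIs, by tag and side of the limit, with the median as a bar and the quartiles as a line. The medians above the limit (5.40%, 5.85% and 4.99%) lie over those at or below it (4.48%, 5.37% and 3.80%) in tags 1, 2 and 3, while the single rods of both sides overlap.

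Single members of the list varied around these sums. In tag 2, 26 of the 32 compared members were above 0, with a median of 0.15 against -0.03 for all genes. Of these members 5 were past 1.5-fold higher, near the 16.5% of all genes, and 1 was lower, against 17.0%. In tag 1, 5 of 26 were past 1.5-fold higher and 4 lower, against 18.8% and 18% of all genes. In tag 3, 2 of 7 were higher and 1 lower, against 18.4% and 16.9% of all genes. Rom1, a partner of peripherin at the rim of outer segment discs, had log2 ratios of 0.31, 0.20 and 0.16 in tags 1, 2 and 3, the first of which was 0.08 without the deep rods. Prph2, peripherin itself, had 0.52 in tag 1 (0.29 without the deep rods), 0.05 in tag 2 and -0.29 in tag 3. Cnga1, a subunit of the rod channel gated by cyclic GMP, had UMIs in 36 of 40 rods above the limit in tag 1 and 133 of 144 in tag 2, with log2 ratios of 0.30 (0.18 without the deep rods), 0.13 and 0.20, of which the tag 2 value went to -0.0035 when divided by all UMIs. Of the members past 1.5-fold, named after their values were seen, Kcnv2, a potassium channel subunit of the inner segment, had 133 against 44 UMIs in tag 2 (1.72, 1.23 to 2.26), and Abca4, the retinoid transporter of the disc rim, 76 against 330 in tag 1 (1.28, 0.89 to 1.63, and 1.25 without the deep rods) and 231 against 174 in tag 2 (0.54, 0.25 to 0.83).

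Transcripts for soluble or peripherally bound photoreceptor proteins, of phototransduction and of other functions, stayed closer to the nuclear-coded RNA as a whole. Their 33 genes held 7.01% above the limit against 6.46% at or below it in tag 1 (log2 0.12, and 0.03 without the deep rods), 7.28% against 7.44% in tag 2 (-0.03) and 5.87% against 5.37% in tag 3 (0.13). In tag 1, 6 of 25 compared members were past 1.5-fold lower and 3 higher, against 18% and 18.8% of all genes. Without the deep rods 3 were lower and 2 higher, against 16.7% and 11.5%. Named after its values were seen, Rpgrip1, which anchors proteins at the cilium, was among the lower with 12 against 1001 UMIs (-2.93, -3.95 to -2.18), 365 of the latter in 1 rod, and 12 against 218 without the deep rods (-1.24, -2.27 to -0.46). In tag 2, 1 of 29 was past 1.5-fold higher and 1 lower. All genes gave 16.5% and 17.0%, or 8.37% and 7.69% at a minimum of 50 expected UMIs. Pde6g, the inhibitory subunit of the rod phosphodiesterase, had log2 ratios of 0.09, -0.15 and 0.18, and was at -0.17 in tag 1 without the deep rods. Guca1a, which activates the guanylate cyclases at low calcium, had 0.26 (0.06 without the deep rods), 0.02 and 0.06. Pde6b, a catalytic subunit of the phosphodiesterase, had -0.17 in tag 1 (0.11 without the deep rods) and -0.20 in tag 2. Of the genes that chose the rods, Gngt1 had 0.44 (0.20 without the deep rods), -0.20 and 0.05 and Sag 0.03, -0.02 and -0.20.

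The photoreceptor transcription factors held 0.867% of nuclear-coded UMIs above the limit against 0.808% at or below it in tag 1 (log2 0.10, -0.02 to 0.22, and 0.24 without the deep rods), 0.835% against 0.770% in tag 2 (0.12, 0.03 to 0.20) and 0.689% against 0.531% in tag 3 (0.38, 0.05 to 0.69). By the median rod, the shares were 0.651% against 0.679% in tag 1, 0.825% against 0.694% in tag 2 and 0.701% against 0.466% in tag 3. Nrl, which specifies rod fate, had UMIs in 31 of 40 tag 1 rods above the limit and in 116 of 144 tag 2 rods, with log2 ratios of 0.45 (0.21 without the deep rods) and 0.00, and in 5 of 11 tag 3 rods with -1.11. Nr2e3, which represses cone genes in rods, had 0.34 in tag 1 and -0.02 in tag 2. Over the list, 5 of 14 compared members were past 1.5-fold higher in tag 2 and 1 was lower, against 16.5% and 17.0% of all genes, with a median of 0.37 against -0.03. Named after their values were seen, the 5 were Rorb (0.61), Otx2 (0.64), Samd11 (0.70), Sp4 (1.30) and Samd7 (1.36), and Ankrd33 was lower at -0.76. In tag 1, 0 of 8 were higher and 1, Neurod1, was lower (-0.86), against 18.8% and 18% of all genes. Without the deep rods 3 of 9 were higher and 0 lower, against 11.5% and 16.7% of all genes. Neurod1 was then at -0.49, and the list median was 0.37 in place of 0.17, against 0.02 for all genes.

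Transcripts for the connecting cilium were lower above the limit in tags 1 and 2 and higher in tag 3. The 34 genes held 0.314% of nuclear-coded UMIs above the limit against 0.494% at or below it in tag 1 (log2 -0.65, -0.85 to -0.46, and -0.62 without the deep rods) and 0.411% against 0.468% in tag 2 (-0.19, -0.30 to -0.08). Tag 3 had 0.628% against 0.455% (0.47, 0.12 to 0.80), from 103 and 275 UMIs. By the median rod, the shares were 0.269% against 0.457% in tag 1, 0.393% against 0.402% in tag 2 and 0.538% against 0.458% in tag 3. In tag 2, 6 of 16 compared members were past 1.5-fold lower and 2 higher, against 17.0% and 16.5% of all genes. Apart from Mak and Tctex1d2, which also met the ranking of tags 1 and 2 given further on, these were named after their values were seen: Arl13b, a ciliary GTPase (-1.05), Bbs7, of the Bardet-Biedl complex (-0.75), the centrin Cetn2 (-0.74) and the axonemal protein Rp1l1 (-0.64) were lower, and Cetn3 (0.91) and Bbs4 (0.85) higher. Arl6, a small GTPase that recruits the Bardet-Biedl complex, had -0.76 in tag 1 and -0.35 in tag 2. Cep290, of the transition zone, had 4 UMIs in 2 rods above the limit and 390 in 61 rods at or below it in tag 1 (-3.05, -5.10 to -1.85, and -2.64 without the deep rods), but 86 against 95 in tag 2 (-0.01), and 23 in 5 rods against 8 in 4 rods in tag 3 (3.35, 2.19 to 4.78). Mak, a ciliary kinase, had 0 UMIs above the limit in tag 1 against 123 in 30 rods, at least 3.91-fold lower at a floor of 3 UMIs over the group. That bound includes the deep rods, and 54 UMIs in 23 rods were left at or below the limit without them. Mak had 12 against 36 UMIs in tag 2 (-1.41, -2.53 to -0.48), and 4 against 0 in tag 3.

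Transcripts for the ribbon synapse, the release site of the rod terminal, showed no common direction. The list's share was lower above the limit in tag 1 (log2 -0.28, -0.44 to -0.13), a value of 0.01 without the deep rods, and it was 0.11 in tag 2 (0.00 to 0.21) and -0.63 in tag 3 from 30 and 173 UMIs. The median rod of tag 2 held a lower share above the limit (0.419% against 0.451%), unlike the sum. In tag 2, 3 of 14 compared members were past 1.5-fold higher, near the 16.5% of all genes, and 0 lower, against 17.0%.

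The nuclear-coded subunits of the respiratory chain held nearly the same share on both sides of the limit in tags 2 and 3. Their 84 genes held 5.12% of nuclear-coded UMIs above the limit and 5.13% at or below it in tag 2 (log2 0.00, -0.04 to 0.03), where 0 of 73 compared members were past 1.5-fold higher and 4 were lower, against 16.5% and 17.0% of all genes. The share of all genes depends on depth, and at a minimum of 50 expected UMIs it was 8.37% higher and 7.69% lower in tag 2. In tag 3 the list's shares were 7.18% and 7.08%. In tag 1 they were 6.44% and 5.02% (0.36, 0.31 to 0.40), which became 0.10 without the deep rods. Of its 60 compared members 20 were past 1.5-fold higher and 1 lower in tag 1, against 18.8% and 18% of all genes, and without the deep rods 8 of 62 were higher and 4 lower, against 11.5% and 16.7%. Ndufa4, which works with cytochrome c oxidase, had 0.17 (-0.14 without the deep rods), 0.08 and -0.06 in tags 1, 2 and 3. The genes for mitochondrial import and upkeep were at 0.19, 0.00 and 0.14 and the mitochondrial ribosome at -0.01, 0.01 and 0.02 by summed share. Without the deep rods, tag 1 gave 0.02 for import and upkeep and -0.20 (-0.33 to -0.07) for the mitochondrial ribosome. Of the 39 compared members of the latter in tag 2, 12 were past 1.5-fold higher and 9 lower, against 16.5% and 17.0% of all genes.

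Cytosolic ribosomal proteins and glycolysis lay on opposite sides of 0 in tags 1 and 2, a difference that was not tested. For the ribosomal proteins it depended on the comparison rods. Tag 1 was at -0.005 (-0.04 to 0.03) when only comparison rods above 8% mitochondrial UMIs and with 200 to 2500 genes were used, a setting chosen after seeing the data. Glycolysis was at 0.32 in tag 1 in that setting. Ribosomal protein genes held 12.1% of nuclear-coded UMIs above the limit against 10.1% in tag 1 (log2 0.26, 0.23 to 0.29, and 0.07 without the deep rods), 10.3% against 11.2% in tag 2 (-0.11, -0.13 to -0.09) and 15.6% against 14.1% in tag 3 (0.15, 0.09 to 0.21). In tag 2, 53 of 79 compared members were below 0, though 1 was past 1.5-fold higher and 4 lower. All genes gave 16.5% and 17.0%, or 8.37% and 7.69% at a minimum of 50 expected UMIs. The enzymes of glycolysis and lactate, on which photoreceptors rely for much of their ATP, held 2.38% against 1.70% in tag 1 (0.48, 0.41 to 0.56, and 0.32 without the deep rods), 1.75% against 1.99% in tag 2 (-0.18, -0.24 to -0.13) and 1.39% against 2.03% in tag 3 (-0.55, -0.76 to -0.34). Aldoa, an aldolase, was at 0.59 in tag 1 (0.37 without the deep rods), -0.41 in tag 2 and 0.04 in tag 3. Gapdh was at 0.39 (0.21 without them), -0.25 and -0.67, and Pkm, pyruvate kinase, at 0.83 (0.66 without them), 0.07 and -0.52.

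**Figure D3:**
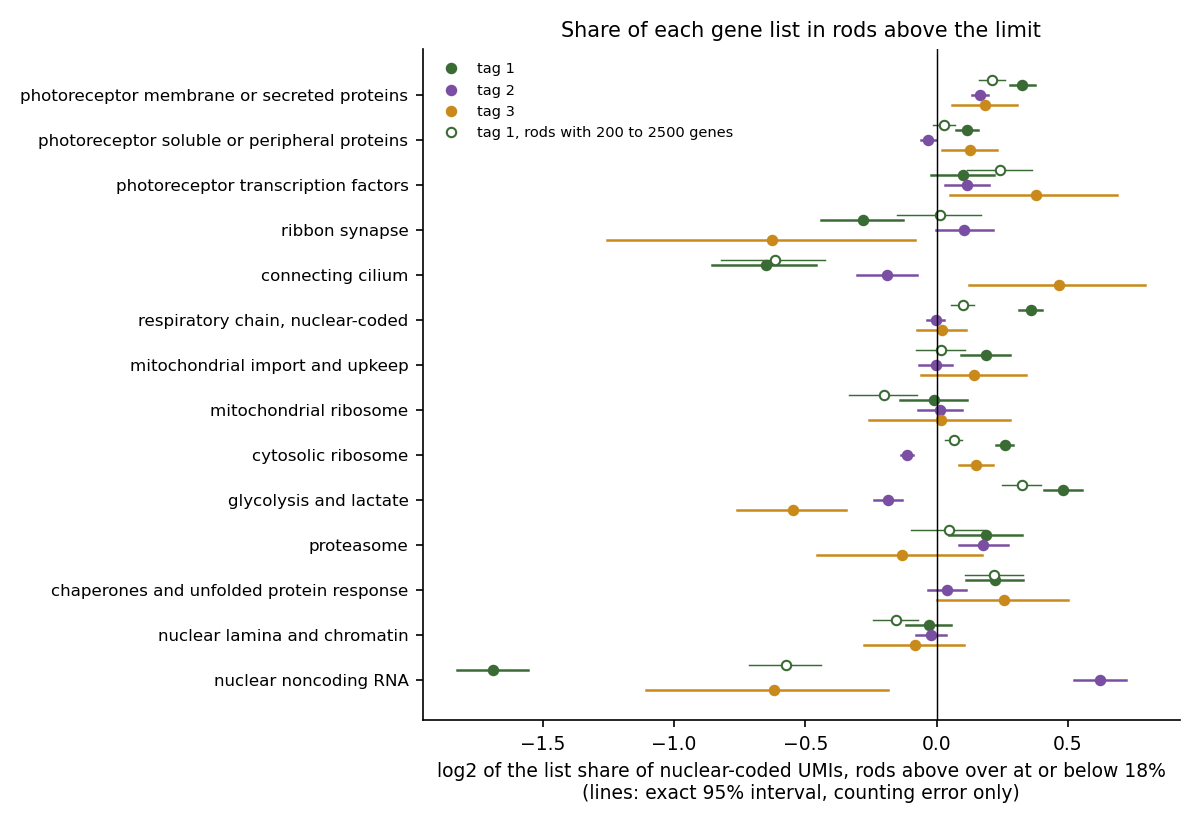
Points give the log2 ratio of each gene list's share of nuclear-coded UMIs, rods above over at or below 18%, for tags 1, 2 and 3 (filled) and for tag 1 without the 7 rods over 2500 genes (open), with exact 95% intervals that cover counting error only. The membrane or secreted photoreceptor proteins lie over 0 in tags 1 and 2 (0.33 and 0.17), the connecting cilium under 0 (-0.65 and -0.19), and glycolysis on opposite sides (0.48 and -0.18). In tag 3 these lists lie at 0.18, 0.47 and -0.55, so the connecting cilium is over 0 there.

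The proteasome, which degrades tagged proteins, had log2 ratios of its summed share of 0.19, 0.18 and -0.13 in tags 1, 2 and 3, and the first of these was 0.05 (-0.10 to 0.19) without the deep rods. In tag 2, 6 of 27 compared members were past 1.5-fold higher and 0 lower, against 16.5% and 17.0% of all genes, with a median of 0.17. Among chaperones, Hspa8, the constitutive Hsp70, had 112 UMIs in 22 rods above the limit against 602 in 106 rods in tag 1 (0.97, 0.66 to 1.26, and 0.75 without the deep rods) and 484 in 79 rods against 380 in 75 rods in tag 2 (0.48, 0.29 to 0.68). In tag 3 it had 20 against 102 UMIs (-0.44, -1.24 to 0.23). In tag 2, 7 of 25 members of the chaperone and unfolded protein list were past 1.5-fold lower and 3 higher, against 17.0% and 16.5% of all genes. Named after their values were seen, Atf4, a transcription factor of the integrated stress response, was lower in tag 1 (12 against 234 UMIs, -0.84, -1.87 to -0.06, and 12 against 153 UMIs without the deep rods, -0.73, -1.76 to 0.07, where too few UMIs were expected for it to be compared) and in tag 2 (56 against 126, -1.03, -1.52 to -0.57), and Ddit3, its target, had 8 against 42 UMIs in tag 2 (-2.19). Immediate early genes, which dissociation induces, were sparse, and their summed share was lower above the limit in each tag. They had 39 against 749 UMIs in tag 1 (-0.86, -1.38 to -0.41, and -0.65, -1.18 to -0.19, without the deep rods). Tag 2 had 226 against 284 UMIs (-0.20, -0.45 to 0.06) and tag 3 had 11 against 59 (-0.49, -1.62 to 0.40), with intervals that included 0. In tag 2, 0 of the 3 compared members were past 1.5-fold, against 33.5% of all genes. Of the cell death list, Bax, which opens the outer mitochondrial membrane, had 26 against 18 UMIs in tag 2 (0.65, -0.26 to 1.62). It was the 1 member of 2 past 1.5-fold, against 33.5% of all genes in either direction, and its interval included 0.

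An annotated noncoding gene that lies in a ribosomal RNA repeat was among the most abundant RNAs that differed in the same direction in tags 1 and 2. Gm42418 (chromosome 17, 39846958 to 39848788 in mm10, plus strand) stood at 5697 CPM (counts per nuclear-coded total, scaled alike for every group) above the limit and 2694 CPM at or below it in tag 1 (log2 1.08, 0.92 to 1.23, and 0.96 without the deep rods), and at 5878 and 3307 CPM in tag 2 (0.83, 0.72 to 0.94). It was seen in 23 of 40 rods above the limit and 127 of 207 at or below it in tag 1, and in 95 of 144 and 73 of 136 in tag 2. In tag 3 it stood at 1890 and 2103 CPM (-0.14, -0.77 to 0.42). In the 9 rods above the limit that were called doublets it had 2 UMIs (107 CPM), against 81 UMIs (3020 CPM) in the 9 such rods at or below it. AY036118 lies on the other strand of the same stretch (39847113 to 39848035) and had 1.84 in tag 1 (1.53 without the deep rods) and 0.87 in tag 2, and in tag 3 it had 0 UMIs above the limit and 12 UMIs in 6 rods at or below it. The sources used here do not give the strand setting of the counting, so these overlapping genes count as 1 observation. Gm42418 also stood at 1661 CPM in 17 other barcodes rich in microglial transcripts, with a median of 3372 UMIs.

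RNA retained in the nucleus was another point on which the tags parted. Malat1 (chromosome 19, 5795690 to 5802672) had 1 UMI in the 40 rods above the limit of tag 1 and 11974 UMIs in 30 of the 207 others (log2 -9.57, -15.46 to -7.68). The 7 deep rods held 9058 of these, and 2916 UMIs in 23 rods were left without them (-8.03, -13.92 to -6.14). In tag 2, Malat1 had 148 UMIs in 40 of 144 rods above the limit and 144 in 32 of 136 rods at or below it (0.17, -0.17 to 0.51). In tag 3 it had 2 UMIs above the limit and 103 in 1 rod at or below it. Mir124-2hg, the host of a neuronal microRNA, had -1.49 in tag 1 (-0.91 without the deep rods) and -0.19 in tag 2. The noncoding list as a whole, Gm42418 included, was at -1.69 in tag 1, 0.62 in tag 2 and -0.62 in tag 3 by summed share. Tag 1 moved to -0.57 without the deep rods, and its sign turned, to 0.29, when only comparison rods above 8% mitochondrial UMIs and with 200 to 2500 genes were used, a setting chosen after seeing the data.

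Genes of the nuclear lamina and chromatin, the structures that the plasmids alter, made up 1.68% of nuclear-coded UMIs above the limit and 1.71% at or below it in tag 1 (1.87% without the deep rods, log2 -0.15, -0.24 to -0.07), 1.74% and 1.77% in tag 2 and 1.74% and 1.84% in tag 3. Hist1h1c, a linker histone, had 5 against 317 UMIs in tag 1 (-2.46, -4.23 to -1.36) and 122 against 121 in tag 2 (0.15, -0.23 to 0.52). Cbx3, a heterochromatin protein, had -0.25 and -0.40 in tags 1 and 2, and -0.55 in tag 1 without the deep rods. Lmna was listed at 0 UMIs on both sides in tags 1 and 3, and in tag 2 had 36 UMIs above the limit, 35 of them in 1 rod, and 8 at or below it in 2 rods. Lbr had 0 UMIs above the limit and 10 at or below it in tag 1, 3 and 11 in tag 2, and 15 in 5 rods and 57 in 8 rods in tag 3.

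Ranking genes by the smaller of their ratios in tags 1 and 2 gave the transcripts that differed most in the same direction in both. The ranking chose them for this, so their ratios in tags 1 and 2 are descriptions. Of 1145 genes with enough UMIs, 585 had the same sign in both tags, and 22 were past 1.5-fold higher and 45 lower in both. Suclg1, a subunit of succinyl-CoA ligase in the citric acid cycle, came first among the higher, with 36 UMIs in 8 rods above the limit against 124 in 35 rods in tag 1 (log2 1.62, 1.03 to 2.15) and 113 in 26 rods against 35 in 15 rods in tag 2 (1.81, 1.27 to 2.41). Rnf11, a ubiquitin ligase of the RING type, had 1.42 in tag 1 (1.96 without the deep rods) and 1.70 in tag 2. Srp9, of the signal recognition particle, had 1.67 and 0.83, and Mrpl51, of the mitochondrial ribosome, 1.14 and 0.95. In Rab24 of tag 1, 23 of the 36 UMIs came from 1 rod.

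The lower end of the ranking held Cggbp1, a protein that binds CGG repeats, with 3 UMIs in 1 rod against 123 in 32 rods in tag 1 (log2 -1.75, -4.27 to -0.39), and 21 against 71 UMIs in tag 2 (-1.60, -2.40 to -0.90). Gas7 had -1.58 in tag 1 (-1.20 without the deep rods) and -2.33 in tag 2, and Bola3, which helps to assemble iron-sulphur clusters in mitochondria, had 4 against 133 UMIs in tag 1 and 16 against 48 in tag 2 (-1.42). Fam53b had 0 UMIs above the limit in tag 1 against 115, at least 3.66-fold lower with the deep rods included. Without them, 45 UMIs in 12 rods were left at or below the limit, so that bound does not hold there. In tag 2, Fam53b had 9 against 45 UMIs (-2.13). Genes with roles in the cilium also stood there, among them Mak, described above, Tctex1d2, a dynein light chain (-1.70 and -1.18), and Lztfl1, a partner of the Bardet-Biedl complex (-1.20 and -1.20). Lztfl1 was at -0.72 (-2.32 to 0.36) in tag 1 without the deep rods.

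Tag 3, which did not enter the ranking, held too few UMIs of the ranked genes to show whether it was repeated there. Among these genes, Gm42418 alone reached the minimum of expected UMIs set for a comparison in tag 3. The signs in tag 3 are therefore given as a description. Of the 12 highest genes, 2 were also above 0 in tag 3, and of the 10 of the 12 lowest that had a UMI there, 4 were below 0. Suclg1 had 3 UMIs in 1 of 11 rods against 14 in 3 of 24 rods there (log2 -0.17, -2.78 to 1.5).

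**Figure D4:**
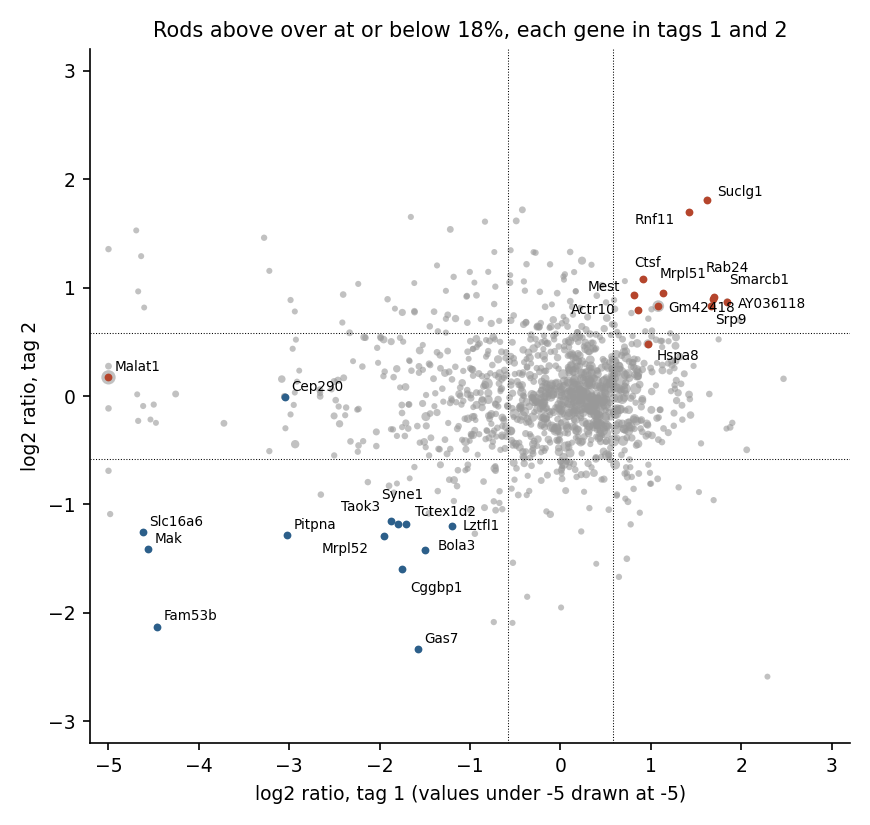
Each point is 1 of 1145 nuclear-coded genes, with the log2 ratio of rods above over at or below 18% in tag 1 on the x axis and in tag 2 on the y axis, grey points growing with the UMIs, dotted lines at 1.5-fold, 0.5 UMIs added to every sum and tag 1 values under -5 drawn at -5. Suclg1 (1.62 and 1.81) and Gas7 (-1.58 and -2.33) are among the coloured ranked genes, with Hspa8, Malat1 and Cep290 coloured beside them, and over the 535 best covered genes r is -0.02.

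Among the rods above the limit themselves, some shares differed with the mitochondrial share. Membrane and secreted photoreceptor proteins in tag 2 were at 5.36% of nuclear-coded UMIs in the 48 rods from 18% to 20%, 5.91% in 34 rods from 20% to 22%, 6.98% in 31 rods from 22% to 25% and 6.31% in 31 rods from 25% to 30%. In tag 1 the same bins, with 7, 11, 12 and 10 rods, gave 4.37%, 5.54%, 5.89% and 5.24%. In the bin just under the limit, from 16% to 18%, the list was at 5.14% in tag 1 (18 rods) and 5.54% in tag 2 (39 rods), in both tags higher than in the bin just above it. Gm42418 was at 0.501%, 0.494%, 0.792% and 0.677% over the 4 bins of tag 2, against 0.313% from 16% to 18%. Cytosolic ribosomal proteins ran from 11.2% in the last bin under the limit to 10.6%, 10.5%, 9.48% and 10.4% above it in tag 2.

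**Figure D5:**
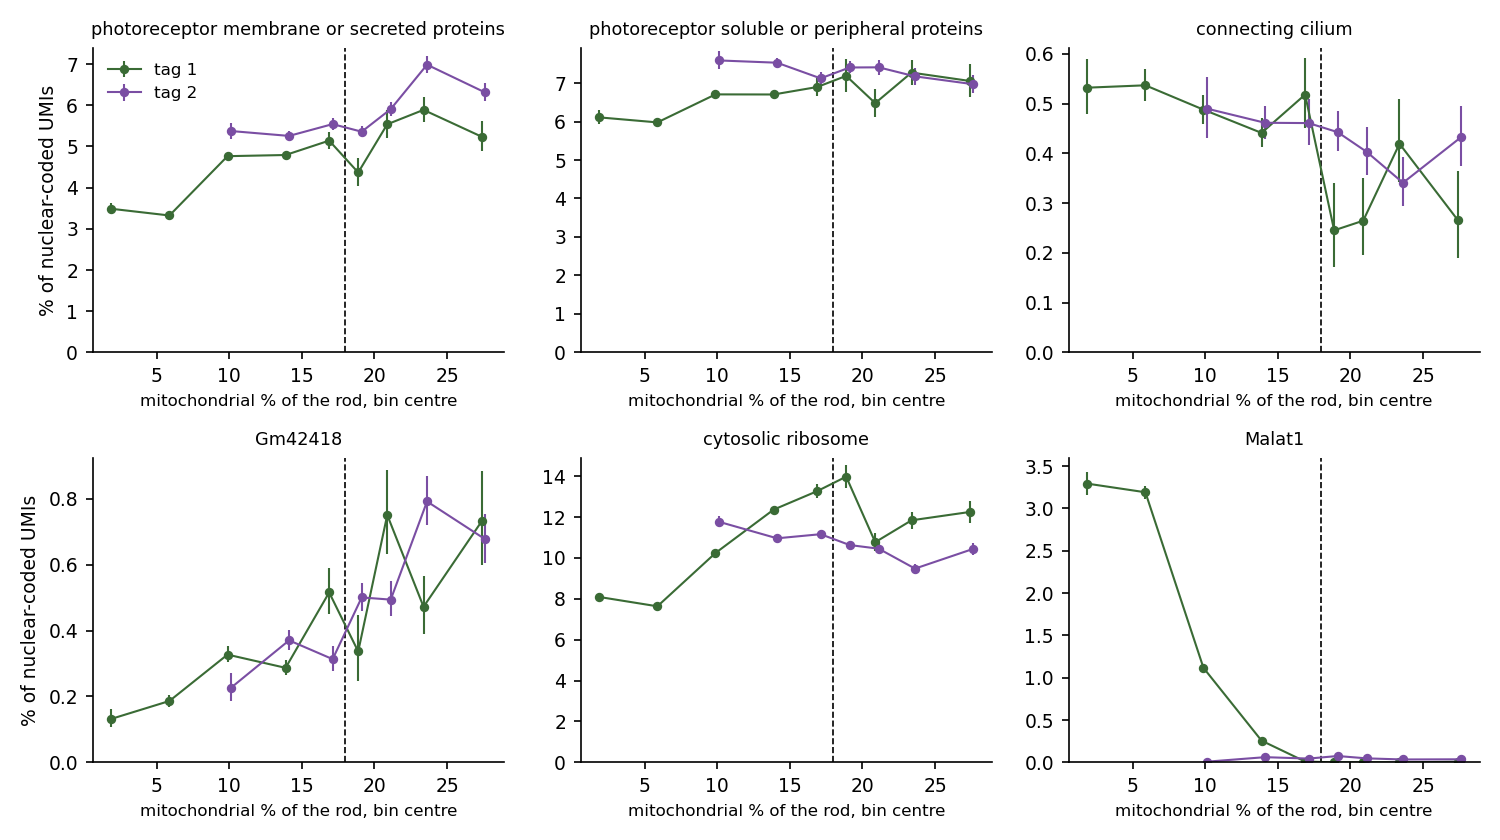
Each panel shows 1 gene or list as a percent of the nuclear-coded UMIs summed over rods in bins of the mitochondrial share, for tags 1 and 2, with exact 95% intervals, bins under 5 rods left out and the dashed line at 18%. The membrane and secreted proteins run from 3.32% to 5.89% in tag 1 and from 5.25% to 6.98% in tag 2, and Malat1 is over 1% in the 3 bins of tag 1 up to 12% (3.29%, 3.19% and 1.12%).

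Within the mitochondrial RNA, the 13 genes kept almost the same proportions on both sides of the limit in tag 2, and less so in the smaller tag 3. In tag 2 their log2 ratios, each as a share of all mitochondrial UMIs, lay between -0.25 and 0.16, and 0 were past 1.5-fold. The most abundant, mt-Co3, made up 23.3% above the limit and 23.6% at or below it in tag 2, and 23.4% and 21.4% in tag 1. The lowest in tag 2 was mt-Nd5, a subunit of complex I, at 1.21% and 1.43% (-0.25, -0.39 to -0.11). It was also the 1 gene past 1.5-fold in tag 1, at 0.737% and 1.16% (-0.65, -0.90 to -0.40), but in tag 3 it was at 1.71% and 0.853% (1.00, with an interval that excludes 0). The difference in mt-Nd5 thus had no common direction over the tags. In tag 3, 3 of the 13 were past 1.5-fold, the others being mt-Nd4l, also of complex I, at 1.24% and 0.667% (0.89, 0.32 to 1.46), and mt-Atp8, of the ATP synthase, with 7 against 20 UMIs (-0.59, -2.14 to 0.65). The intervals of mt-Co1 (0.44) and mt-Atp6 (0.23) in tag 3 also excluded 0, as did those of mt-Co3 (-0.22) and mt-Cytb (-0.21).

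Tag counts, which entered the choice of rods through the list of tagged barcodes and the deposited calls, were not lower in the rods above the limit in tags 2 and 3. A rod's own tag had a median of 64.5 counts above the limit (quartiles 43.8 to 102) and 48.5 (31.8 to 74.3) at or below it in tag 2, 61 and 46.5 in tag 3, and 35 (23.8 to 46) and 41 (26 to 79) in tag 1. The own tag made up 85.6% against 82.6% of a rod's tag counts in tag 2, 79.7% against 77.0% in tag 3 and 79.4% against 82.9% in tag 1.

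Transcripts of other retinal cells were scarce on both sides of the limit. Of the 16 Müller glia markers, 15 were detected in tag 1, 7 in tag 2 and 3 in tag 3. Their summed share ran from 0.0634% to 0.159% above the limit and from 0.0699% to 0.118% at or below it. Clu supplied 82 of the 87 UMIs above the limit in tag 1, and Glul, the glial glutamine synthetase, had 0, 3 and 0 UMIs above the limit. Bipolar markers held 0.00466% to 0.0347% above the limit and 0.00261% to 0.0304% at or below it, and cone markers 0.0272% to 0.0375% and 0.0150% to 0.156%. The cone list includes the genes of the cone rule, which capped them, and these genes had 0 UMIs above the limit in each tag. Above the limit, microglia markers held up to 0.0111%, with C1qa at 0, amacrine, horizontal and ganglion cell markers up to 0.00695%, and vascular and pigment epithelium markers up to 0.00278%. Haemoglobin, from blood, held 0.263% above the limit and 0.127% at or below it in tag 1, 0.0104% and 0.0170% in tag 2, and 0.0183% and 0.00497% in tag 3. Their part in the results above was not tested.

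With the deep rods included, the ratios of tag 1 went with transcript length, and those of tags 2 and 3 hardly did. The correlations of tag 1 were not computed without the deep rods, so their part in these values was not tested. Across the 543 genes of tag 1, Spearman's rank correlation with the length of the longest annotated transcript was -0.32, with GC content 0.24 and with the number of exons -0.15. Over the 2071 genes of tag 2 the same values were 0.04, 0.00 and 0.05, and over the 136 of tag 3 -0.07, 0.11 and 0.07. All compared genes were found in the annotation, and the values are descriptions across genes, which are not independent replicates.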

How the data were processed

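The authors made the whole-number UMI counts with Cell Ranger (6.1.2 in the study's notes, 3.1.0 in the matrix header) against mm10, and deposited them as 1 matrix of 834 barcodes and 31053 genes. The annotation release is not stated there. The tag counts and the fraction behind each barcode's tag call, a probability of a single tag, are also used as the authors deposited them. By its methods, the study then left out cells under 200 or over 2500 genes or above 18% mitochondrial UMIs in Scanpy (1.9.1) and ran Scrublet. No doublet caller was run here beyond the deposited doublet calls.

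UMIs were summed per tag and side of the limit with Python 3.11.15, numpy 2.4.6, scipy 1.17.1 and pandas 2.3.3, and compared as shares of nuclear-coded UMIs, with 0.5 UMIs added to both sums in a log2 ratio. The sums held 16399 to 753991 nuclear-coded UMIs. Intervals are exact and cover counting error only. Cells of 1 pool are not replicates, so no test was made. Named genes were the 12 highest and 12 lowest by the smaller ratio of tags 1 and 2 (at least 20 expected UMIs in tag 2, 10 in tag 1, and 10 rods), the 3 most abundant members of each of 25 lists and the rod genes of the study. After the data were seen, 11 members listed in error were dropped, and 1 further gene is not reported here. The members and lists were chosen with earlier results of these data known. The calculation of ratios and folds was checked on simulated counts. Gene positions and transcript features are from GENCODE on GRCm38 (mm10).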

Additional observations from a re-analysis of the deposited data

Results flagged for a closer look

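Several gene lists differed in direction between tags 1 and 2, and none of these differences was tested. By the log2 ratio of the summed share, rods above over rods at or below 18%, cytosolic ribosomal proteins were at 0.26 in tag 1 and -0.11 in tag 2, glycolysis at 0.48 and -0.18, nuclear noncoding RNA at -1.69 and 0.62, haemoglobin at 1.06 and -0.70, soluble or peripheral photoreceptor proteins at 0.12 and -0.031, and the 4 genes of the rod rule at 0.19 and -0.037. The 7 rods over 2500 genes stood only among the comparison rods of tag 1, and without them tag 1 gave 0.07, 0.32, -0.57, 0.56, 0.029 and 0.099 in the same order. With comparison rods also above 8% mitochondrial UMIs, a setting chosen after seeing the data, tag 1 gave -0.005, 0.32, 0.29, 0.36, 0.014 and 0.073.

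Some rods above the limit lay outside the comparisons. These were 69 barcodes that passed the rod rule above the limit but had no place in the list of tagged barcodes, and 9 rods that the deposited calls name doublets.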

How the results depend on the processing

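No paired analysis was possible because each tag is 1 pool of cells and no replicate numbers exist. Of the log2 ratios of named genes and list medians recomputed under the alternatives, 2674 stayed within the interval of the value reported, 435 moved beyond it, and 15 that had been past 1.5-fold changed sign. For the counts of genes past 1.5-fold, 56 were within 1.5 times the value reported and 46 were not. The cause of these changes was not tested except where the setting itself sets the number of genes or rods.

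With a limit of 15%, 29.1% of tag 1 and 70% of tag 2 rods were above it, the median nuclear-coded UMIs were 1810 above it in tag 1 and 2406.5 at or below it in tag 2, 187 genes were higher and 305 lower of 1176 in tag 1, 189 lower of 1472 in tag 2 and 37 lower of 219 in tag 3, and Psmb5 was at -0.18 in tag 2. With a limit of 20%, 34.3% of tag 2 rods were above it with a median of 1704 nuclear-coded UMIs, 63 genes were lower of 434 in tag 1, 178 higher and 190 lower of 1336 in tag 2 and 13 and 10 of 50 in tag 3, and in tag 2 Mest was at -0.75 and Lmna at -5.21. Leaving out rods within 2 percentage points of 18% gave the same median of 1704, 63 lower of 435 in tag 1, 212 and 219 of 1370 in tag 2, 10 and 11 of 47 in tag 3, Mest -0.42 and Lmna -3.71. Limits of 200 to 2500 genes gave 64 higher of 556 in tag 1, and 64 of 557 when comparison rods were also above 8%, a setting chosen after seeing the data. Calling tags from their counts gave 60 lower of 393 in tag 1 and 13 higher of 99 in tag 3.

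Counting each gene once per rod gave 183 higher and 27 lower in tag 1, 208 higher in tag 2 and 1 lower in tag 3, and turned Neurod1 (0.0033) and Mir124-2hg (0.21) in tag 1 and Gapdh (0.40), Pdc (0.40), H3f3a (0.48) and Malat1 (2.30) in tag 3. Without the rod highest for each gene, 42 were higher in tag 1 and 13 higher and 41 lower in tag 3, and Psma3 in tag 1 (-0.059), Lmna in tag 2 (-1.09) and Malat1 in tag 3 (3.47) changed sign. Averaging CPM over rods gave 65 higher in tag 1, and dividing by all UMIs gave 46 higher in tag 1 and 14 in tag 3. Thinning gave 30 and 28 of 313 genes in tag 1, 141 and 141 of 1098 in tag 2 and 7 and 3 of 51 in tag 3, with Malat1 at 3.24 in tag 3. A minimum of 10 expected UMIs gave 217 and 360 of 1199, 781 and 814 of 3535, and 60 and 73 of 279 genes, higher and lower in tags 1, 2 and 3, and a minimum of 50 gave 41 and 12 of 210, 74 and 68 of 884, and 5 and 5 of 38.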

Other observations

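Of the 27 tagged barcodes above the limit that failed the rod rule and of the 189 barcodes outside the list of tagged barcodes, none entered a comparison. Of the latter, 92 passed the rod rule, and 69 of these were above the limit.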
